A study of Mus musculus with 3 samples.

Results

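Gene expression of mouse bone marrow mesenchymal progenitors given a short hairpin RNA (shRNA) against HIF-1a was compared with that of progenitors given a control shRNA. The comparison rested on 2 of the 3 arrays of the study, 1 array a side, and covered every gene that had a probe set annotated to exactly 1 gene. Where several probe sets measured a gene, the one with the highest 3-array mean stood for it, which gave 17097 genes from 28898 of 45141 probe sets. Of these genes, 5719 were called measured, meaning that the mean intensity of the control and HIF-1a arrays was at least 16. The control group, the HIF-1a group and the HIF-2a group, whose values are given only beside the others, held 1 array each. All 3 came from cells that the labels call PaS+, obtained from adult bone marrow of mice aged 8 weeks of the strain written C56Bl/6. The cells were sorted by FACS, kept in MesenCult medium for 7 days at 1% oxygen, exposed overnight to lentiviral vectors, and collected 4 days after transduction. Low oxygen and lentiviral transduction were therefore shared by the control. The labels name no second hairpin, culture or animal for any group, so differences are given as sizes, without a test.

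HIF-1a is the oxygen-regulated subunit of a transcription factor that accumulates when oxygen is low, because prolyl hydroxylases need oxygen to mark it for destruction by the VHL ligase. With its partner ARNT it binds hypoxia response elements, whose core is commonly ACGTG, and induces genes of glycolysis, vessel growth and matrix maturation. Type I interferons act through a receptor, the kinases Jak1 and Tyk2, and a transcription factor complex containing Irf9 that binds interferon-stimulated response elements in the promoters of antiviral genes. Mesenchymal progenitors are stromal cells that can form bone, fat and cartilage and that secrete factors such as Cxcl12 which keep blood stem cells in the marrow.

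The arrays were unequal in their dim signal. The highest of 23 nonspecific control probe sets stood at 3.47 on the control array and 2.29 on the HIF-1a array, and 3.47 was taken as the level under which a value is only a bound. Both arrays exceeded that level for 8269 genes, the HIF-1a array alone for 481 and the control array alone for 46. The upper quartile of intensity over all probe sets was 9.81 on the control array and 13.0 on the HIF-1a array, while the medians were 1.41 and 1.37. The difference depended on brightness. Outside the 6 interferon lists described further on, the median log2 difference, HIF-1a minus control, was 0.36 for genes with a mean intensity from 3.47 to 8, 0.28 from 8 to 16, 0.17 from 16 to 32, 0.06 from 32 to 64, 0.02 from 64 to 128, and 0 above that. The Dap, Lys, Phe and Thr control probe sets above the nonspecific level showed a median log2 difference of 0.31 over 11 probe sets. The BioB, BioC, BioD and Cre controls showed one of 0.08 over 12. The ratio of 3' to 5' signal was 1.38 on the control array and 1.52 on the HIF-1a array for the actin probe sets, and 1.17 and 1.19 for those of Gapdh. The part of this dim-signal difference in the gene differences given here was not tested. For 1596 genes, 2 or more probe sets were measured, and their log2 differences had a pooled within-gene SD of 0.18, which is a spread within a pair of arrays and not between cultures.

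**Figure D1:**
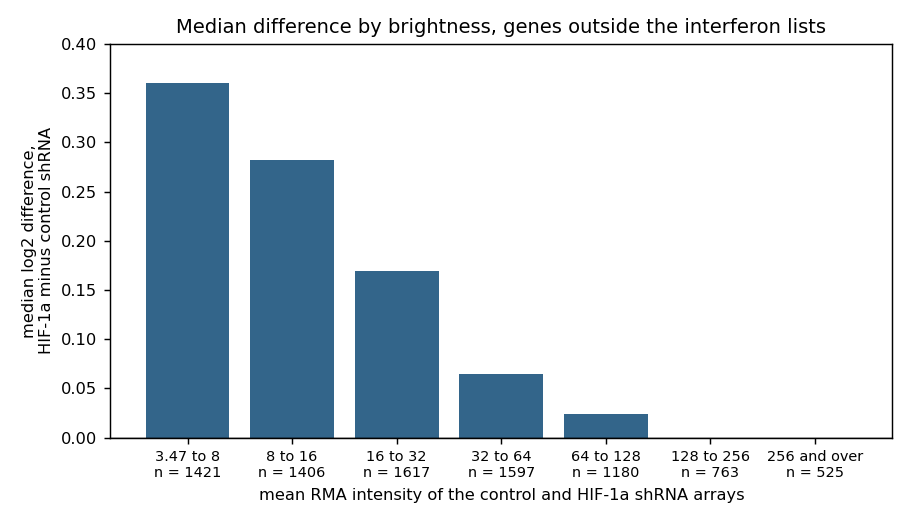
Median log2 difference, HIF-1a minus control shRNA array (bars), for genes outside the interferon lists, grouped by the mean RMA intensity of the 2 arrays. The bars fall from 0.36 for the dimmest genes to 0 at 128 and above, so dim genes tended to read higher on the HIF-1a array.

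The targeted gene was examined first. Hif1a (Entrez 15251) read 352.1 on the control array and 332.4 on the HIF-1a array, a log2 difference of -0.08. It read 332.4 on the HIF-2a array as well, so the level did not set apart the hairpin aimed at it from the other. That probe set is of a kind that can match several transcripts, and where it lies relative to the hairpin target was not tested. A second Hif1a probe set read 1.21 on every array, under the nonspecific level. The array is called HIF-1a-labelled from here on, and each direction rests on its label. Epas1, which encodes HIF-2a (Entrez 13819), was below the minimum for a measured gene and read 5.09 on the control array and 9.44 on the HIF-1a-labelled array.

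Among the 5719 measured genes, 60 (1.05%) had a value on the HIF-1a-labelled array at least 2-fold above control, and 3 (0.0525%) were at least 2-fold below it. Differences of any size above 0 were found for 3391 genes (59.3%), differences below 0 for 1089 (19%), and 1239 genes had equal values. The median log2 difference was 0.05, and the 5th and 95th percentiles were -0.14 and 0.56. A gene dim on the control array passes the minimum only if the HIF-1a-labelled array is bright, so the minimum favours higher genes. Among the 5451 genes with a control value of at least 16, a rule chosen after seeing the data, 15 were 2-fold higher (0.275%) and 4 were 2-fold lower (0.0734%). That rule leaves out genes dim on the control array however bright the HIF-1a-labelled array is, so it favours lower genes. Many of the largest differences were those of antiviral genes: 21 of the 60, and 6 of the 15, belonged to the interferon target and sensor lists. These lists held 37 of the 5719 measured genes and 19 of the 5451. Of the 39 among the 60 that were outside these lists, 33 read under 20 on the control array. Dim control values were common in both sets. A control value of at least 16 was found for 9 of these 39 and 6 of the 21, beside 5443 of all 5719. The 3 lower genes were Cck, 2610528A11Rik and Akr1c18.

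**Figure D2:**
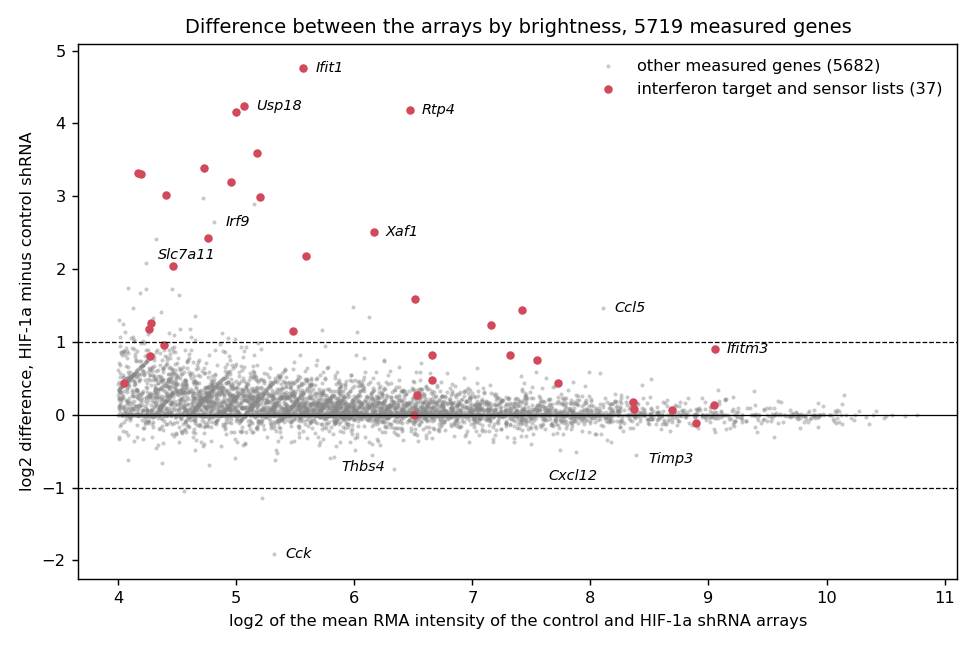
Each point is 1 of the 5719 measured genes, with the log2 of the mean RMA intensity of the 2 arrays on the horizontal axis and the log2 difference, HIF-1a minus control, on the vertical axis. Red points are the 37 measured members of the interferon target and sensor lists, and dashed lines mark 2-fold. Grey points spread upward at the dim end. The largest differences include red points, such as Ifit1, and grey ones, such as Gm9706.

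The interferon-stimulated genes formed the largest group of differences. The 6 lists (antiviral effectors, oligoadenylate synthetases, inducible GTPases, PARP and TRIM genes, class I antigen presentation, and nucleic acid sensors) had 97 genes on the array. Of all 97, 42 (43.3%) were at least 2-fold higher and none was 2-fold lower, beside 2.1% and 0.0292% of all 17097 genes. Another 27 were under the nonspecific level on both arrays. Over the 8796 genes above that level on at least 1 array, 4.08% were 2-fold higher, 0.0568% were 2-fold lower, 65.2% were above 0 and 15.5% below. The minimum on intensity left 37 list genes, with a median log2 difference of 1.24, but 18 of the 37 read under 16 on the control array and passed through the HIF-1a-labelled array alone, so that their difference is built into the choice. For the 19 list genes with a control value of at least 16, the minimum was applied to the control value alone. The HIF-1a value still entered the choice of probe set, which went by the mean of all arrays. The lists were also chosen with earlier results of these data known, so these 19 are not free of selection. Of these 19, 6 were 2-fold higher, none was 2-fold lower and 17 were above 0. Their median was 0.75, beside 0.04 for all genes with a control value of at least 16.

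The promoters of 4 genes with large differences are shown because they hold the core of the interferon-stimulated response element, GAAA followed by any 2 bases and a second GAAA. Sequences are RefSeq promoters of build GRCm38.p6 from 250 bases before to 50 bases after the start of the gene, written 5' to 3' on the strand of the gene, with matches on either strand in capitals. Ifit1 lies at chr19:34640639-34640938 on the plus strand, Ifit3 at chr19:34583279-34583578 on the plus strand, Gbp3 at chr3:142559794-142560093 on the plus strand and Irgm1 at chr11:48871371-48871670 on the minus strand. In Gbp3 and Irgm1 the matches overlap and are capitalised as 1 run.
Ifit1: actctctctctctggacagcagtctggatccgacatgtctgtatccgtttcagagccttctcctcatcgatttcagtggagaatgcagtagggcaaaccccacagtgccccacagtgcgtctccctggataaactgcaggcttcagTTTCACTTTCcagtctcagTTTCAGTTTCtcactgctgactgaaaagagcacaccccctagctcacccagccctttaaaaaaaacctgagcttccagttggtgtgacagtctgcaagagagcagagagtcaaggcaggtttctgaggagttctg
Ifit3: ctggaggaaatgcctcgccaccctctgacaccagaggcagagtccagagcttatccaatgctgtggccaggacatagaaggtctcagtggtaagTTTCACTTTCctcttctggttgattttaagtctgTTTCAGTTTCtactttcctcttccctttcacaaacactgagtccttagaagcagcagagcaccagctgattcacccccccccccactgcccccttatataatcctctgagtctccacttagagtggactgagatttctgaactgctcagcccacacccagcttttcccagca
Gbp3: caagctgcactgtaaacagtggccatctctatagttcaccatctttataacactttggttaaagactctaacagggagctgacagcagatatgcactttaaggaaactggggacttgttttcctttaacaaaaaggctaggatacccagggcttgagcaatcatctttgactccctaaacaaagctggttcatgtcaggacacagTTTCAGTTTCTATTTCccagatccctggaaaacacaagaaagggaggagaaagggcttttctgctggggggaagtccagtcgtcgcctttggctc
Irgm1: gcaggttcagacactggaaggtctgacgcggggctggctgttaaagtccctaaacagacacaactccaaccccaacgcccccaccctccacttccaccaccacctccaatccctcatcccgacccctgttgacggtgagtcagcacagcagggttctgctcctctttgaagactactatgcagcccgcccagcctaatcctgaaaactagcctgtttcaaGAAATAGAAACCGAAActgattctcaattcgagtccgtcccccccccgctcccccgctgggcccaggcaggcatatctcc

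Counted from the annotated start, the matches began at positions -104 and -85 in Ifit1, -156 and -122 in Ifit3, -45 and -39 in Gbp3, and -30 and -24 in Irgm1. Of the 21 list genes that were 2-fold higher, 17 had a promoter in the RefSeq table, and 9 of these (52.9%) held this paired GAAA core. List genes above the nonspecific level on at least 1 array, whatever their difference, held the core in 25 of 55 promoters (45.5%). The share was thus high in the lists as such. Among all measured genes with a promoter it was found in 139 of 4708 (2.95%), and among all promoters of the table in 943 of 27025 (3.49%). For the 2-fold higher genes outside the lists it was found in 3 of 31 (9.68%). These counts describe letters in a window and not binding.

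Antiviral effectors had many of the largest differences of single genes. Ifit1 (Entrez 15957), which binds viral RNA that lacks the host cap methylation, read 1.04 on the control array against 93.8 on the HIF-1a-labelled array, at least 27.0-fold higher. Usp18, which removes ISG15 from proteins and damps interferon receptor signalling, read 1.26 and 65.7 and was at least 18.9-fold higher. Ifit3, a partner of Ifit1, read 2.01 and 61.9 and was at least 17.8-fold higher. These 3 genes were under the nonspecific level with the control hairpin, so their folds are lower bounds computed against 3.47. Rtp4, an interferon-induced chaperone of membrane receptors, was above that level on both arrays, at 9.27 and 167.8, a ratio of 18.1. Ifi35, an interferon-induced leucine zipper protein, read 2.48 and 34.2, at least 9.84-fold higher. Xaf1, which antagonises the apoptosis inhibitor XIAP, read 21.4 and 122.0, a log2 difference of 2.51.

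The effectors with a control value of at least 16 were 7, of which 3 were 2-fold higher, with a median of 0.90. Besides Xaf1, Samd9l, an antiviral growth regulator, read 45.5 and 137.1 (log2 difference 1.59), and Lgals3bp, a secreted galectin ligand, read 92.3 and 250.7 (1.44). The membrane proteins that block virus entry were unequal: Ifitm3 read 371.8 and 693.9 (0.90), whereas Ifitm2 read 310.1 and 348.8 (0.17). Ifi27 read 115.1 and 203.9 (0.83), and its 2 measured probe sets gave log2 differences of 0.83 and 0.92. Isg20, an exonuclease, read 91.0 on both arrays. Of all 23 effectors on the array, 12 (52.2%) were at least 2-fold higher. Below the minimum, Rsad2, which makes a chain-terminating nucleotide, read 1.24 and 11.4, and Ifit2 read 7.30 and 17.3. Isg15 and Bst2 had no probe set annotated to a single gene and were not analysed here.

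The inducible GTPases and the PARP and TRIM genes had large differences too. Gbp3, a guanylate-binding protein, read 4.64 on the control array and 48.4 on the HIF-1a-labelled array (log2 difference 3.38). The immunity-related GTPases Irgm2 and Irgm1 read 4.67 and 37.8 (3.02) and 8.21 and 65.3 (2.99). Gbp2 was the only GTPase with a control value of at least 16, at 85.0 and 200.2, and its 2 measured probe sets gave 1.14 and 1.24. Of all 15 GTPases on the array, 8 (53.3%) were at least 2-fold higher. Below the minimum, Iigp1 read 1.65 and 28.4, Gbp10 1.99 and 16.5, and Igtp 6.27 and 24.8. Parp12 and Parp9, ADP-ribosyltransferases of the antiviral response, read 5.54 and 66.7 (3.59) and 6.10 and 56.0 (3.20). The ubiquitin ligases Trim25, which activates RIG-I, and Trim21, an intracellular antibody receptor, read 27.8 and 61.4 (1.14) and 11.8 and 26.6 (1.17). Trim25 and Trim21 were under 2-fold after quantile scaling, at 0.998 and 0.89, and with 16 added before taking logs, at 0.82 and 0.62. Of all 14 PARP and TRIM genes on the array 9 (64.3%) were 2-fold higher, and Trim25 was the only one with a control value of at least 16. The list median was 2.19 for measured genes and 1.31 without the minimum.

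Of all 12 sensors of foreign nucleic acid on the array, 8 (66.7%) were at least 2-fold higher, and only Ddx58 had a control value of at least 16. Zbp1, which binds Z-form nucleic acid, read 1.35 and 34.6, at least 9.97-fold higher. Ddx58, which encodes the RNA helicase RIG-I, read 17.4 and 78.9 (log2 difference 2.18), and Eif2ak2, the double-stranded RNA kinase PKR, 8.62 and 35.5 (2.04). Adar, an RNA-editing deaminase, read 11.4 and 27.3 (1.26), but was under 2-fold after quantile scaling (0.97) and with 16 added (0.66). The p200 family members Ifi203 and Ifi204 read 8.52 and 45.8 (2.43) and 14.2 and 27.6 (0.96). Ifih1, which encodes MDA5, was below the minimum at 1.35 and 22.3, and so was Dhx58, which encodes LGP2, at 4.64 and 21.3. The list of oligoadenylate synthetases and RNase L had 11 genes on the array. Only Oas1g and Oasl2 of these exceeded the nonspecific level on either array: Oas1g read 1.35 and 16.5, and Oasl2 1.57 and 14.0.

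Class I antigen presentation genes had the lowest share of 2-fold higher genes among the interferon lists. Of all 22 on the array 3 (13.6%) were 2-fold higher, and of the 9 with a control value of at least 16 none was, with 8 above 0 and a median of 0.27. H2-T10, a nonclassical class I gene, read 73.4 and 129.0 (0.81), the immunoproteasome subunit Psmb10 14.0 and 24.5 (0.81), and Tapbp, which loads peptide, 139.0 and 234.2 (0.75). The classical class I genes were unequal. H2-D1 read 180.1 and 243.9 (0.44), whereas H2-K1 read 493.7 and 455.4 (-0.12), with log2 differences from -0.24 to -0.12 over its 3 measured probe sets. Psme2 and Psme1, the proteasome activator subunits, gave 0.47 and 0.27, H2-M3 0.43, and Calr and Canx 0.14 and 0.07. H2-T23 depended on the probe set, at 0.08 for the one used and -0.28 for another. Psmb9, an immunoproteasome subunit below the minimum, read 3.57 and 15.0. Class I genes are near copies of each other, so signal may be shared between them.

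The signalling genes upstream of these targets had a median of 0.11 over 12 measured genes and of 0.32 over 16 without the minimum. Irf9, the DNA-binding subunit of the interferon-stimulated complex, read 7.74 on the control array and 48.3 on the HIF-1a-labelled array (2.64), and the receptor kinase Tyk2 9.77 and 23.1 (1.24). Tyk2 was under 2-fold after quantile scaling (0.88) and with 16 added (0.60). Socs3, a feedback inhibitor of cytokine receptors, read 31.9 and 45.6 (0.52), Irf3 23.99 and 30.4 (0.34), and Irf2 15.1 and 18.7 (0.31). The receptor chains Ifnar1 and Ifngr1 read 37.4 and 42.3, the same on both arrays, Ifnar2 differed by 0.16 and Ifngr2 by 0.04. The kinases Jak1 and Jak2 gave -0.07, with -0.30 to 0.04 over the 3 measured probe sets of Jak1, and -0.15, and Stat3 0.07. Irf7, the amplifier of interferon transcription, was just below the minimum at 3.91 and 27.6 (2.82), and Stat2 read 3.12 and 12.4. The interferon genes themselves were not detected: all 11 on the array, Ifnb1 and Ifng among them, were under the nonspecific level on both arrays. Levels of dim ligands were not detectable here, which does not show that they were absent.

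**Figure D3:**
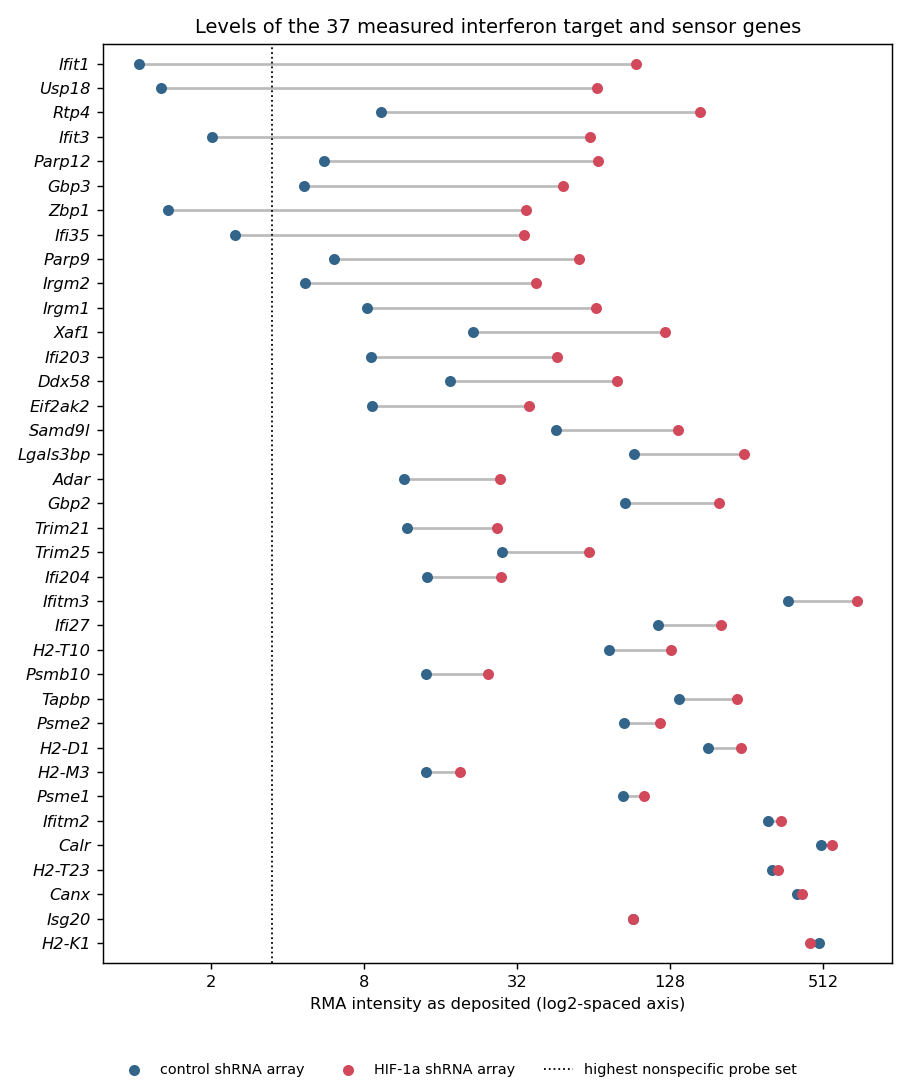
RMA intensity on a log2-spaced axis for the 37 measured interferon target and sensor genes, ordered by difference, on the control shRNA array (blue) and the HIF-1a shRNA array (red), 1 array each; the dotted line is the highest nonspecific probe set, 3.47. Blue points of Ifit1, Usp18, Ifit3, Zbp1 and Ifi35 lie left of that line, while H2-K1 at the bottom is the only gene with its red point to the left of the blue one.

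The same genes on the HIF-2a array are given beside these values for reference, and both shRNA arrays share the control array. Ifit1 read 186.3 there, Usp18 147.4, Rtp4 248.8, Ifit3 123.9, Irf9 60.4 and Ddx58 93.8. High readings of these antiviral genes were thus present on the array of the other hairpin as well. Markers of blood cells that could carry an interferon response were looked at beside them: 17 of 19 haematopoietic and macrophage markers were under the nonspecific level on both arrays, with Ptprc at 1.05 and Adgre1 at 0.98 on each. The other 2 were Cd14 (93.4 and 87.8) and S100a8 (19.8 and 41.0), the latter 2.07-fold higher, though under 2-fold in log2 difference after cyclic loess (0.93), quantile scaling (0.85) and with 16 added (0.67). The summed intensity of the 19 was 136.8 and 150.9, which is no measure of cell number because probe sets differ in their response. Their part in the interferon values was not tested.

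Of the 39 higher genes outside the interferon lists, several are known interferon targets that the lists did not hold, and they were recognised after their values were seen. Phf11a read 5.96 and 46.8 (log2 difference 2.97), Apol9a, an apolipoprotein L, 8.43 and 62.7 (2.90), and the helicase Helz2 6.32 and 33.7 (2.42). The p200 family gene Ifi205 read 33.5 and 93.7 (1.48), the ubiquitin ligase Rnf213 8.66 and 27.6 (1.67), and Samhd1, which destroys deoxynucleotides, 14.2 and 31.9 (1.17). Gm9706 had the second largest difference of all, at 2.79 and 92.5, at least 26.6-fold, on a probe set that can match several transcripts. Other members of the 39 have varied roles, and whether interferon also induces them was not tested. Pnpt1, a mitochondrial RNA-degrading enzyme, read 11.0 and 34.6 (1.65), Mylip, a ligase for the LDL receptor, 7.78 and 26.04 (1.74), Pigq, of GPI anchor synthesis, 8.73 and 28.9 (1.73), and Aldh3a1, an aldehyde dehydrogenase, 39.6 and 100.2 (1.34). The difference of Slc7a11, the cystine transporter, depended on the probe set: the one used read 7.23 and 30.5 (2.08), and the other measured one 24.2 and 28.3 (0.22). After cyclic loess scaling, which levels the dim end, 25 of these 39 genes remained at least 2-fold higher, against 21 of the 21 in the interferon lists. With quantile scaling 20 and 18 remained, and with 16 added before taking logs 9 and 18. The genes that cyclic loess took under 2-fold had started at log2 differences from 1.01 (Imp4) to 1.13 (Mzt2). The smallest difference among the 21 was that of Trim25, 1.14. These counts therefore also depend on how far above the cut a gene started.

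Cck had the largest negative difference, and Hk2, a glycolytic gene, one of the larger negative differences of its list. Their promoters are shown because both hold ACGTG, a common core of hypoxia response elements, in capitals on either strand. Other forms of the core were not searched. The sequences are from the same RefSeq table. Cck lies at chr9:121495645-121495944 and Hk2 at chr6:82774405-82774704, both on the minus strand. In Cck the matches on the 2 strands overlap and form 1 run, CACGTG, which reads the same on both strands and is thus 1 site.
Cck: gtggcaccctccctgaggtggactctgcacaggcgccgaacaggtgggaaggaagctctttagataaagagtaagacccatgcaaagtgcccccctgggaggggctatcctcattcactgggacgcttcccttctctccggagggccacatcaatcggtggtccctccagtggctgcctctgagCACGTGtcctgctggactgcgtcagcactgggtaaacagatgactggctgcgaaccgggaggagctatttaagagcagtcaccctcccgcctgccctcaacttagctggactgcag
Hk2: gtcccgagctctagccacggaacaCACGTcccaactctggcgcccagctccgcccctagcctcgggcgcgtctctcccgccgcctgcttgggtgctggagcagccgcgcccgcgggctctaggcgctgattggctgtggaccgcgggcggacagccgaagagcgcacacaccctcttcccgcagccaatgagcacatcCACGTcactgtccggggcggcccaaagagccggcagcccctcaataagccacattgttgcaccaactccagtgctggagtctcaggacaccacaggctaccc

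The matches began at -66 and -65 in Cck and at -226 and -52 in Hk2. The core was present in 26 of the 47 measured hypoxia and glycolysis genes that had a promoter in the table (55.3%), in 1359 of 4708 measured genes (28.9%), and in 4 of 14 of the lowest genes that had one (28.6%). In the 2-fold higher interferon list genes it was found in 1 of 17 (5.88%). A match is a description of the letters only.

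The genes lower on the HIF-1a-labelled array were few and their differences small. Cck (Entrez 12424), the precursor of the peptide hormone cholecystokinin, read 63.0 on the control array and 16.7 on the HIF-1a-labelled array, a ratio of 3.78 and a log2 difference of -1.92. It read 27.4 on the HIF-2a array. 2610528A11Rik read 51.1 and 23.1 (-1.15), and Akr1c18, a progesterone-inactivating reductase, 31.8 and 15.4 (-1.05), with 39.9 on the HIF-2a array. Cck alone of the 3 kept a 2-fold difference when 16 was added before taking logs.

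Of the other 17 among the 20 lowest genes none was 2-fold lower by the probe set used. Timp3, an inhibitor of metalloproteinases that binds the matrix, read 398.9 and 272.1 (log2 difference -0.55), and 418.6 on the HIF-2a array. Its 3 other measured probe sets gave larger differences, from 323.5 to 186.2 (-0.80), from 97.4 to 45.2 (-1.11) and from 30.9 to 13.7 (-1.17), so all 4 were lower. Cxcl12, the chemokine that retains blood stem cells in the marrow, read 249.96 and 177.85 (-0.49), with a second measured probe set at 42.5 and 32.7 (-0.38), and 72.3 on the HIF-2a array. Pgf, a placental growth factor of the VEGF family, read 33.6 and 20.9 (-0.69), and Thbs4, a thrombospondin of tendon and muscle matrix, 66.6 and 44.0 (-0.60), with 12.7 on the HIF-2a array. Timp3 and Cxcl12 were thus lower in each of their measured probe sets. The hyaluronan synthase Has2 read 20.5 and 13.4 (-0.62), and the hyaluronidase Hyal1 23.03 and 16.8 (-0.45), with 36.2 on the HIF-2a array. H2-Ab1, a class II antigen-presenting chain, read 101.1 and 60.4 (-0.74), and its 2 measured probe sets gave -0.74 and -0.63. Slc2a3, the glucose transporter GLUT3, read 25.4 and 16.1 (-0.66).

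The rest of the lowest 20 were Cnrip1 (log2 difference -0.62), Bend5 (-0.59), Tlcd3a (-0.58), Glipr1 (-0.55), Smim27 (-0.52), Gm41724 (-0.51), Stbd1 (-0.49), Gpc6 (-0.49) and Rab10os (-0.48). Gpc6, a cell-surface glypican, differed between probe sets, from -0.49 to 0.17 over 3.

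**Figure D4:**
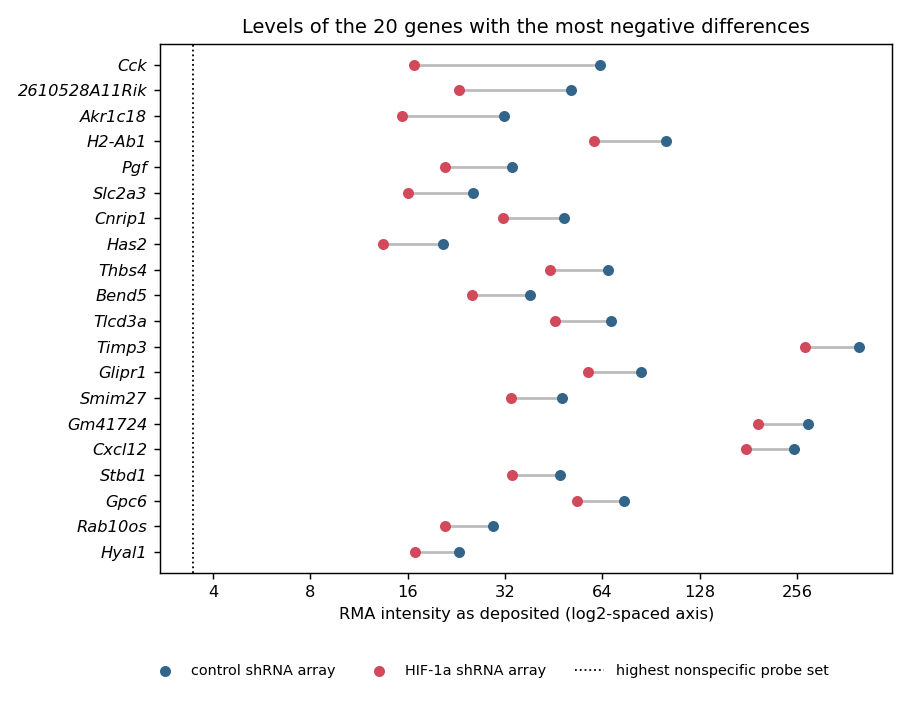
RMA intensity on a log2-spaced axis of the 20 measured genes with the most negative differences, on the control shRNA array (blue) and the HIF-1a shRNA array (red), 1 array each, with the highest nonspecific probe set as a dotted line at 3.47. Every value lies right of that line, and the gap is widest for Cck, 63.0 against 16.7.

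Genes induced by hypoxia, the best known targets of HIF-1a, differed little between the arrays, and more of them were below 0 than above. Of 34 measured genes of the list outside glycolysis, none was 2-fold lower or higher, 24 were below 0, 5 above and 5 equal, and the median was -0.07. Of 24 measured glycolytic genes, 17 were below 0, 3 above and 4 equal, with a median of -0.06. The share below 0 in both lists together, 41 of 58 genes (70.7%), stood beside 19% of all measured genes. The genes of these lists are mostly bright, so the count was also taken at a mean intensity of at least 128, where 30 of 40 list genes (75%) and 395 of 1259 other genes (31.4%) were below 0. Both medians lay between -0.10 and -0.06 after cyclic loess and quantile scaling, where the medians of all measured genes were -0.01 and -0.03.

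Several genes of cell metabolism and signalling showed the larger of these small differences. Hilpda, a lipid droplet protein that blocks lipolysis, read 206.3 and 155.6 (log2 difference -0.41), Rcor2, a chromatin corepressor, 29.3 and 22.6 (-0.37), and Jmjd6, a lysyl hydroxylase, 101.3 and 83.2 (-0.28). Narf, at 17.4 and 22.4 (0.37), went furthest against its list. Vegfa, the main growth factor of vessels, read 323.3 and 286.8 (-0.17). Ero1a, which drives disulfide formation, read 735.6 and 622.7 (-0.24), and Plod2, a collagen lysyl hydroxylase, 618.6 and 542.9 (-0.19). Other classical targets read the same on both arrays: Car9, a carbonic anhydrase at the cell surface, stood at 382.2, Bnip3, a mitophagy receptor, at 867.3, and Ddit4, an inhibitor of mTORC1, at 244.6.

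Among glycolytic genes, Slc2a3 differed most. Aldoc, an aldolase, read 111.8 and 89.8 (-0.32), the first glycolytic kinase Hk2 187.6 and 152.7 (-0.30), Pfkfb3, which makes the activator of phosphofructokinase, 126.2 and 103.2 (-0.29), and Pfkp, a phosphofructokinase, 287.8 and 239.3 (-0.27). Pfkm, the muscle form of that enzyme, read 34.0 and 40.2 (0.24). Ldha (1149), Tpi1 (669.1) and Pdk1 (181.8) read the same on both arrays. The oxygen sensors and HIF subunits were level as well, with a median of 0 over 8 measured genes: Egln3, a prolyl hydroxylase that hypoxia induces, read 406.5 and 373.6 (-0.12), Egln1 294.3 and 274.9 (-0.10), and Arnt 20.9 and 22.3 (0.09).

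Inflammatory genes showed small differences, with a few exceptions. Of 11 measured chemokines, 1 was 2-fold higher: Ccl5, an attractant of T cells that interferon and NF-kB both induce, read 146.5 and 404.9 (1.47). Cxcl14 read 15.3 and 26.8 (0.81), Ccl9 28.1 and 42.7 (0.60) and Cxcl5 476.4 and 605.2 (0.35), whereas Cxcl1, Cxcl2 and Ccl2 gave -0.02, 0.10 and 0.10. Cxcl10, an interferon-induced chemokine below the minimum, read 1.91 and 21.3. Cxcl1, Cxcl2 and Ccl2 were thus nearer to 0 than Ccl5. Of 17 measured NF-kB genes none was 2-fold higher and 15 were above 0 (59.3% of all measured genes were), with a median of 0.19: the adhesion molecule Icam1 read 46.0 and 69.2 (0.59), Tlr2, a receptor for bacterial lipoproteins, 88.5 and 132.0 (0.58), and Birc3, an inhibitor of cell death, 48.8 and 68.0 (0.48). Among 8 measured complement genes, Cfb, the factor B of the alternative pathway, read 40.7 and 89.6 (1.14, and 0.90 with 16 added). The others included Clu at 0.44, C4b at -0.31 and Serping1, the C1 inhibitor, at -0.37, and the median was 0.05. The acute-phase genes had a median of -0.04 over 7, with Hp at 0.32 and Saa2 at -0.27, with 0.04 for its second measured probe set.

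Of the stress and metabolic lists, cholesterol and fatty acid synthesis had the highest median. The unfolded protein response list had 21 measured members, 15 of them above 0 and none past 2-fold, with a median of 0.14, and its larger differences were those of the chaperone cofactor Sdf2l1, 59.3 and 83.9 (0.50), Edem1, 53.04 and 72.9 (0.46), and Creld2, 111.8 and 141.1 (0.34). The second measured probe set of Edem1 gave 0.01. Among 19 measured ATF4 targets only Slc7a11 passed 2-fold, the median was 0.00, and Sesn2 and Nupr1, stress regulators, stood at -0.43 and -0.37. The cholesterol and fatty acid synthesis list was led by Fdps at 28.8 and 42.3 (0.56), Nsdhl at 20.9 and 29.0 (0.47) and Cyp51 at 28.1 and 38.8 (0.46). Of its 12 measured genes 11 were above 0, beside 59.3% of all measured genes, and the median was 0.26. Most of these genes lie from 16 to 64 in mean intensity, where the medians of other genes were 0.17 and 0.06. The list median was 0.15 after cyclic loess and 0.28 over 9 genes with a minimum of 32, where all genes had 0.02. The 70 measured genes of the respiratory chain and ATP synthase had a median of 0.00, with 30 above 0 and 20 below, from Ndufa5 at -0.19 to Uqcrc1 at 0.30. Antioxidant genes had a median of 0.00 over 28, with Gsta4 at 0.44, Sod3 at 0.32 and Gstm2 at -0.31. The second measured probe set of Sod3 gave 0.68.

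Proliferation genes were near the median of all measured genes. The replication list had a median of 0.06 over 15, with none past 2-fold: the helicase subunit Mcm4 read 14.2 and 23.3 (0.72), the licensing factor Cdt1 27.8 and 38.2 (0.46) and the ligase Lig1 14.2 and 19.4 (0.45), while Pcna read 227.8 and 223.6 (-0.03). The mitosis list had a median of 0.03 over 8, with Mad2l1 at 0.29, Ube2c at -0.24 and Anln at -0.15. Without the minimum the medians were 0.36 and 0.25, and the median of all genes was 0.10. These added genes are dim, where other genes also read higher on the HIF-1a-labelled array. The p53 targets and CDK inhibitors had a median of 0.01 over 18, with Aen at 0.22, Cdkn1a, which encodes p21, at -0.08 and Mdm2 at -0.04.

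**Figure D5:**
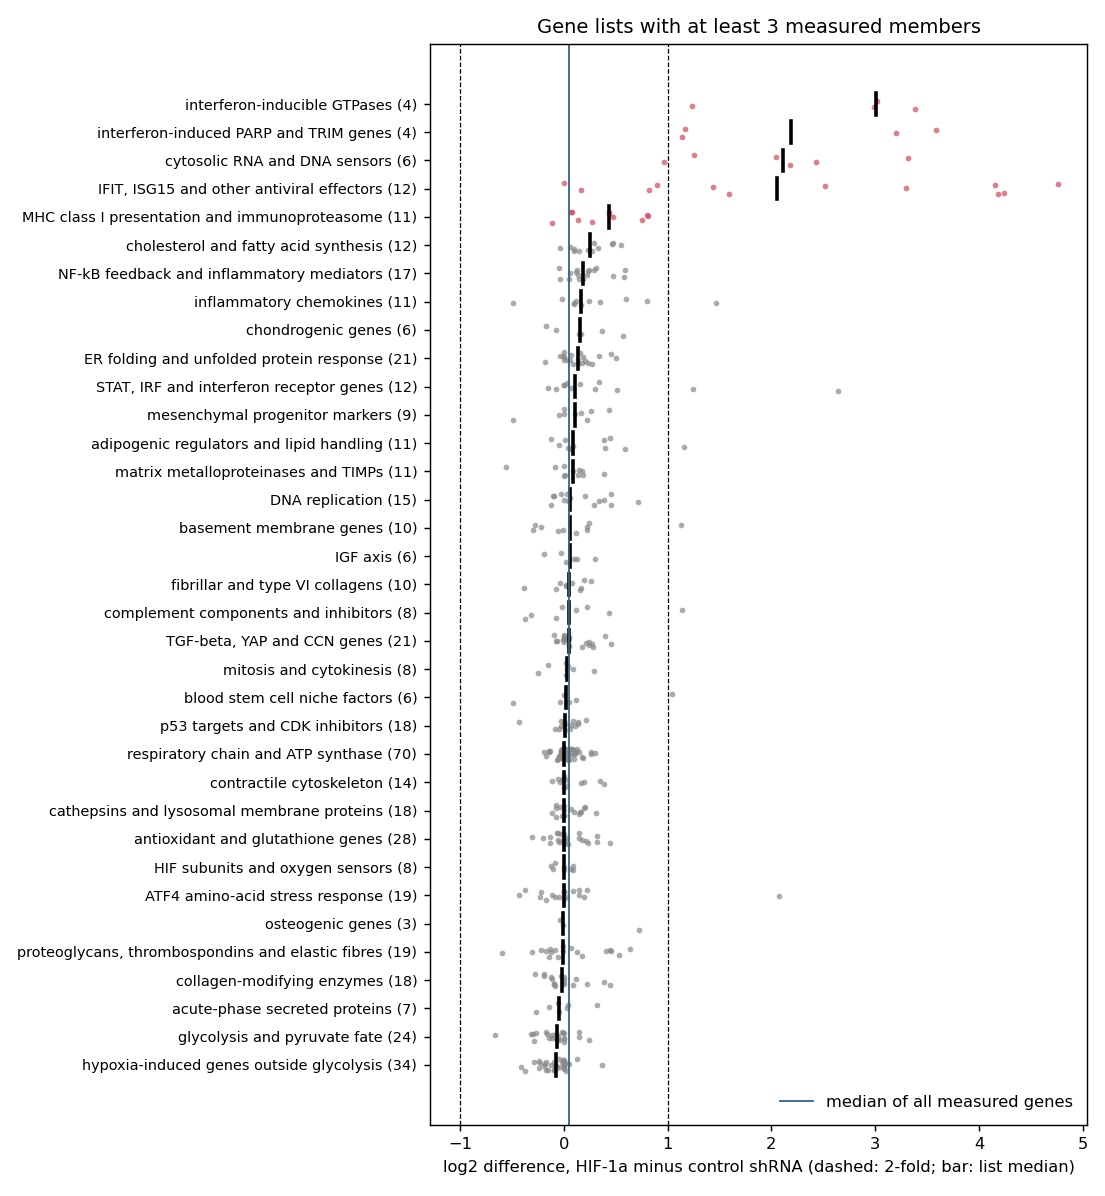
Log2 difference, HIF-1a minus control shRNA array, of the measured members (points) of each gene list with at least 3 of them, with the list median as a black bar, the number of measured members in parentheses and the median of all measured genes as a blue line. Red points are interferon lists, whose medians run from 0.43 for class I presentation to 3.004 for the GTPases, and include genes that passed the minimum through the HIF-1a array alone, while the medians of the other lists lie between -0.07 and 0.26.

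The lineage genes of the progenitors showed a few larger differences on a level background. Of 11 measured adipogenic genes, 9 were above 0, beside 59.3% of all measured genes, and 1 passed 2-fold: Cbr2, a carbonyl reductase, read 32.8 and 73.1 (1.16, and 0.87 with 16 added), with 10.4 on the HIF-2a array. Lpl, which releases fatty acids from lipoproteins, read 148.7 and 223.9 (0.59), Plin4 25.8 and 35.1 (0.45) and Fabp4 298.1 and 394.0 (0.40). Pparg, the regulator of fat cell formation, was level at 24.4 and 24.7. Only 3 osteogenic genes were measured, Tnfrsf11b, the decoy receptor for RANKL, at 33.9 and 56.1 (0.73), Sparc at 0.00 and Col1a1 at -0.04. The second measured probe set of Sparc gave 0.15. Of 6 chondrogenic genes, Comp read 218.4 and 324.5 (0.57), Sox5 0.37, Sox9 -0.07 and Prg4, the joint lubricant, -0.17 in log2 difference. Among 6 measured niche factors, Ptn, a heparin-binding growth factor, read 20.7 and 42.7 (1.04) and Kitl, the stem cell factor, 165.8 on both arrays. The difference of Ptn was under 2-fold after cyclic loess (0.91), quantile scaling (0.84) and with 16 added (0.68). Ptn and Cxcl12 thus lay on opposite sides of 0.

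Matrix genes were level in most groups. Fibrillar and type VI collagens had a median of 0.05 over 10, from Col16a1 at -0.38 to Col3a1, 1030 and 1239 (0.27), with Col6a2 at 0.19 (0.06 on its other measured probe set). Collagen-modifying enzymes had a median of -0.02 over 18, from P3h3 at -0.27 to Loxl4 at 0.44, and Loxl3 at 0.39. In the proteoglycan and elastic fibre list the small leucine-rich proteins Lum, 42.5 and 66.2 (0.64), and Fmod, 139.0 and 201.0 (0.53), lay opposite to Thbs4, and the median was -0.01 over 19. Agrn, a heparan sulfate proteoglycan of basement membranes, was the only matrix gene of these lists past 2-fold, at 18.5 and 40.3 (1.13), and was under it after quantile scaling (0.91) and with 16 added (0.71). Laminin Lamb1 gave -0.29 and collagen Col4a5 -0.27 beside it, and the median of that list was 0.06 over 10. Metalloproteinases were near level, with Mmp2 at 100.2 and 131.2 (0.39), Timp2 at 0.19 and Mmp3 at 0.15, so Timp3 went furthest against its list. The 5 measured probe sets of Timp2 ran from 0.00 to 0.33. The TGF-beta list had a median of 0.05 over 21, with Ccn3 at 0.45 (0.10 on its other measured probe set), Tgfb3 at 0.40 and Ccn5 at 0.28. The IGF list had a median of 0.06 over 6, with Irs1 at 0.30, Igf1r at -0.19 and Igfbp6 at 0.13, and the 3 measured probe sets of Igf1r ran from -0.19 to 0.20. Contractile genes had a median of 0.00 over 14, with Actn1 at 0.39 (0.00 on its other measured probe set), Myh9 at 0.35 and Acta2 at 0.20. Cathepsins and lysosomal membrane proteins had one of 0.00 over 18, with Lgmn at 0.31, Grn at 0.21 and Hexa at 0.20.

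The label of the cells was compared with markers. Of 14 mesenchymal markers on the array, 12 exceeded the nonspecific level on each array: Pdgfra, a growth factor receptor of stromal progenitors, read 38.2 and 51.6 (0.43), Prrx1 419.2 and 490.2 (0.23), and Vim 1204 and 1168 (-0.04). Ly6a, which encodes Sca-1, had no probe set annotated to it alone and was not analysed here. Lepr was low at 4.47 and 3.86, and Nes and Mcam were under the nonspecific level. The 6 erythroid markers on the array were all under the level. So were 13 of 15 endothelial markers, all but Eng and Egfl7, and 8 of 10 smooth muscle markers, all but Acta2 and Notch3. Pecam1 read 1.06 and 0.86, and Myh11 1.35 on both. In RNA from a whole culture, fewer cells of a type and less RNA per cell cannot be told apart.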

How the data were processed

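Total RNA (1 µg a sample) of 3 cultures was labelled with biotin and hybridised to Affymetrix arrays, per the labels' protocols. The authors deposited RMA intensities, and RMA is named per the submitters' processing notes; neither version nor settings are given in those sources. The range of the values, 0.63 to 1747, shows a linear intensity scale. RMA as usually run makes array distributions alike and can return equal values on several arrays.

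Of the probe sets, 28898 had 1 gene in the platform annotation, 551 had several and 15588 were not listed, beside 104 controls; 28689 of the first were matched by Entrez identifier to RefSeq GRCm38.p6. Log2 differences were taken with no further scaling, values under 3.47, the highest nonspecific probe set, were raised to it, and a gene was counted at a 2-fold difference where the mean of the 2 arrays reached 16. The named genes were Hif1a, Epas1, the 20 highest and 20 lowest differences, in each list the members past 2-fold (up to 6) or the 3 largest, those furthest against their list, all measured interferon target, sensor and STAT or IRF genes, and further members chosen for their known role. Members and the 41 gene lists were chosen with earlier results of these data known. Alternatives were other minima, scaling with limma 3.58.1 in R 4.3.3, other probe set rules, an added 16, a 1.5-fold rule and a minimum on the control value alone. Scripts in Python 3.11.15 were tested on simulated data. With 1 array a side no p-value was computed, and precision is limited by the number of arrays.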

Additional observations from a re-analysis of the deposited data

Results flagged for a closer look

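Probe sets without a gene in the platform annotation were left out of the gene counts. Of 1903 such probe sets measured by the same minimum, 20 read at least 2-fold above control with the HIF-1a hairpin and 0 were 2-fold lower, and the largest was 20.6-fold higher. The share that was higher, 1.05%, equals that of the named genes to 3 digits. These probe sets stay unnamed here.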

How the results depend on the processing

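No paired analysis was possible because each group held 1 array, and no array could be left out. The number of genes at least 2-fold higher, 60 as reported, was 359 with no minimum, 210 with a minimum of 8, 18 with 32 and 8 with 64, 39 after quantile normalisation, 27 with 16 added before taking logs and 249 at 1.5-fold. The number 2-fold lower, 3 as reported, was 5 with no minimum, 0 with a minimum of 64, 1 with 16 added and 10 at 1.5-fold. The median of the measured interferon genes, 1.24, was 1.86 with a minimum of 8, 0.86 with 32, 0.61 with 64, 1.00 after quantile normalisation, 1.44 on probe sets of 1 transcript and 0.87 with 16 added. Chosen after seeing the data, cyclic loess with no minimum gave 227 higher and 6 lower, genes above the nonspecific level on both arrays gave an interferon median of 1.05, and genes with a control value of at least 16 gave 15 higher and an interferon median of 0.75. Of the values of single named genes under these settings, 1741 moved by less than the probe set SD of 0.18 and 111 by more. The first count includes settings that only choose genes, such as the minima, where a value cannot move. After quantile normalisation 49 moved by more and 97 by less, and the counts were also 49 and 97 with 16 added. No value past 2-fold changed sign. A lower minimum counts more genes and a higher one fewer; the cause of the other changes was not tested. Signal near the nonspecific level limits every dim gene.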

Other observations

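Many genes shared exactly the same intensity within an array. On the control array the 5719 measured genes took 4058 different values, compared after rounding to 4 decimals, and 34.0% of genes shared theirs with another measured gene; on the HIF-1a-labelled array they took 3271 values and 52.1% shared. The commonest control value, 24.4, was held by 157 genes, and the commonest value on the HIF-1a-labelled array, 33.7, by 56. Of the 39 higher genes outside the interferon lists, 24 had a shared value on the HIF-1a-labelled array, and of the 21 in the lists 8 did. Rtp4, Mid1ip1 and Stau2 all read 9.27 on the control array, and Helz2, Tor3a and Cnot2 all read 33.7 on the HIF-1a-labelled array. How these repeated values arose was not tested.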
